A study of Mus musculus with 9 samples.

Results

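The genes described here were 10 components of the circadian clock, namely Arntl, Clock, Npas2, Per1, Per2, Per3, Nr1d1, Nr1d2, Dbp and Nfil3. They were found as the probe sets annotated to these symbols, 24 of the 45037 on the array, which covers 18193 genes. The genes were chosen by their log2 signal on 8 mouse liver arrays and by its relation between genes, so their levels and their likeness to one another are a description, and no test supports them. After a filter on low signal, 20 of the 24 probe sets remained among 24531 in all, with at least 1 for each of the 10 genes. Values below are for the brightest kept probe set of a gene unless another is named.

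The study asked what repeated exposure to 2 reactive dichloroacetyl compounds does to the liver of an autoimmune-prone mouse strain. All mice were female MRL +/+ mice, 11 weeks old at death, given 2 intraperitoneal injections per week for 6 weeks in 100 µl of corn oil, and each liver was taken 24 h after the last dose. The DCAC group (3 mice) received 0.2 mmol/kg of dichloroacetyl chloride, the DCAA group (3 mice) received 0.2 mmol/kg of dichloroacetic anhydride, and the control group (3 mice) received corn oil alone, although the sample labels call it untreated. Both compounds carry a dichloroacetyl group, and they differ in the leaving group, chloride in the acyl chloride and dichloroacetate in the anhydride. Each mouse gave 1 array. The mice were kept on a light and dark cycle, and the clock time at which each was killed is not given in the sources used here. Differences in time of day between mice or groups therefore cannot be told apart from other differences in the clock genes, those between dosed and control livers included.

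The mammalian clock is a feedback loop of transcription factors. ARNTL (also called BMAL1) pairs with CLOCK or NPAS2 and switches on genes that carry an E-box, among them the period genes, the nuclear receptors NR1D1 and NR1D2 and the bZIP factor DBP; the period proteins then repress the pair, and the nuclear receptors repress Arntl and Npas2 through ROR elements. In mouse liver, Arntl, Clock and Npas2 transcripts are known to peak in the opposite part of the day from Nr1d1, Dbp and the period genes, and NFIL3 binds the same D-box sequences as DBP with the opposite action.

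The arrays hold signal intensities brought to a common trimmed mean, and the number of mice limits their precision. Array medians ran between 157 and 214. One of the controls, control 2, stood apart: it correlated with the rest at a median Spearman's rho of 0.807, against 0.859 to 0.929 among the other 8, its summed signal of 9 hepatocyte markers was 24864 against 306094 to 426185, and its summed signal of 9 kidney markers was 119488 against 1328 to 2336. Its label says liver, and its values are given apart and enter no comparison except where stated. On the manufacturer's control probe sets for pyruvate carboxylase, the 3' signal over the 5' signal, which is high where signal is weighted to the 3' end, was 2.85, 3.99 and 12.8 in DCAC livers, 6.43, 8.38 and 10.9 in DCAA livers and 3.93 and 3.32 in control livers. Since livers were measured whole, fewer cells of a type and less RNA per cell cannot be told apart.

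Dbp, the D-box activator, had the widest levels of the 10 genes on the log2 scale, once signals under an array's low-signal floor (its 25th percentile) were raised to that floor. Its signal was 1090.4, 231.6 and 3403.8 in DCAC livers 1 to 3, 2244.7, 565.2 and 783 in DCAA livers 1 to 3, and 194.6 and 162.2 in control livers 1 and 3. The 6 dosed livers all lay above the 2 controls, but DCAC liver 2 was only slightly higher, while DCAC liver 3 and DCAA liver 1 were far above the rest. The means were 1575 ± 1641 in DCAC livers, 1198 ± 913 in DCAA livers (SD, n = 3 each) and 178 ± 22.9 in control livers (SD, n = 2). Within the DCAC group the highest liver exceeded the lowest 14.7-fold, within the DCAA group 3.97-fold and within the controls 1.20-fold. The other Dbp probe set, whose signal followed the first at r = 0.991 over the 8 arrays, read 1006.6, 170.7 and 2768.4 in DCAC livers, 1973.6, 409.1 and 548.2 in DCAA livers and 145.9 and 177.6 in control livers, so that on it DCAC liver 2 fell between the controls.

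Over the 8 arrays the standard deviation of log2 Dbp was 1.64, the 6th highest among 12293 genes. Taken within groups it was 1.40, the 15th highest, where the median gene had 0.28. Groups accounted for 48.1% of the variance of log2 Dbp, against 31.7% for the median gene, and the rest lay between mice of the same group.

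**Figure D1:**
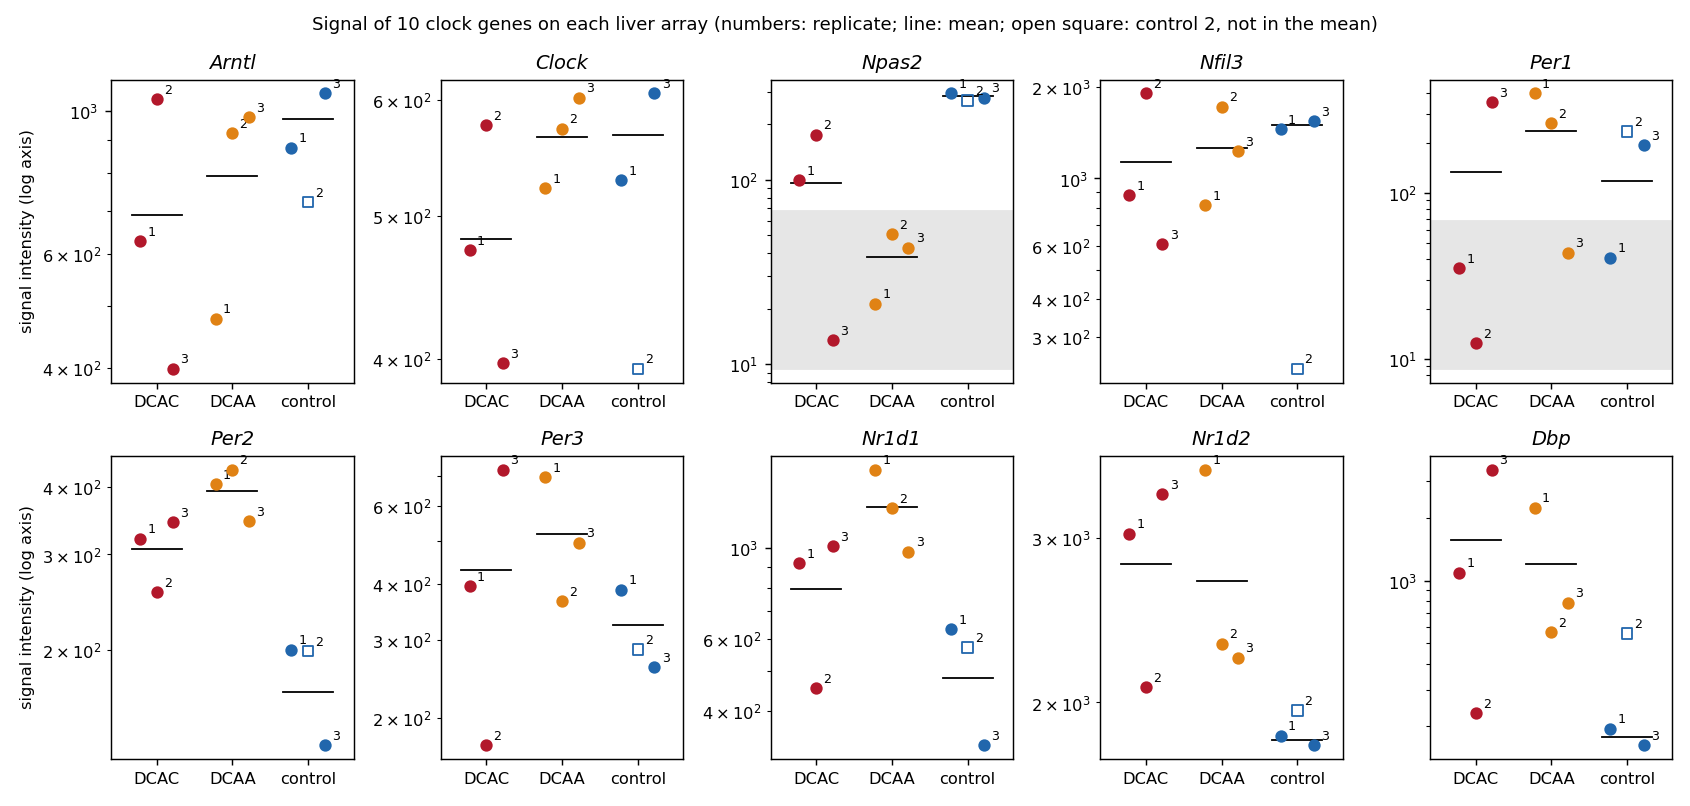
Signal intensity (log axis) of the brightest kept probe set of each clock gene, by group, with 1 point per mouse, the replicate number beside it and a line at the group mean. Control 2 is an open square outside the mean, and the grey band marks signals under the highest of the arrays' low-signal floors; DCAC liver 3 and DCAA liver 1 hold the highest Dbp, Nr1d2, Per1 and Per3 and the lowest Arntl and Nfil3 points among the 8 arrays.

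Arntl, the shared partner of the activator pairs, read 628.8, 1041.4 and 399.3 in DCAC livers, 477.5, 923.8 and 977.9 in DCAA livers and 876.1 and 1063 in control livers. The same 2 livers that had the highest Dbp, DCAC liver 3 and DCAA liver 1, had the lowest Arntl, and DCAC liver 2, with low Dbp, was among the highest. The groups overlapped, with means of 690 ± 325 in DCAC livers, 793 ± 275 in DCAA livers and 970 ± 132 in control livers. Groups accounted for 20.3% of the variance of log2 Arntl. The dimmer Arntl probe set gave 199.1 to 412.9 in DCAC livers, 269.7 to 402.6 in DCAA livers and 423 and 430.2 in control livers, and on it both dosed groups lay below the controls.

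Clock, the DNA-binding partner of ARNTL, was the steadiest of the 10 when each gene was read on its brightest probe set. On that probe set it read 474.2, 576.5 and 397.3 in DCAC livers, 522.5, 573.5 and 601.9 in DCAA livers and 529.1 and 606 in control livers. Its highest array exceeded its lowest 1.53-fold, and its groups overlapped. The other 3 Clock probe sets were dimmer on average and varied more. Over the 8 arrays they ran from 286.8 to 652.4, from 145.7 to 385.5 and from 89.7 to 429.4. They did not follow Dbp alike: in the same order their r with Dbp was -0.816, -0.213 and -0.912, against -0.712 for the brightest.

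Npas2, a relative of Clock that can take its place beside ARNTL, read 99.3, 175 and 13.5 in DCAC livers, 21.3, 50.8 and 42.8 in DCAA livers and 293.2 and 277.9 in control livers. Both controls lay above every dosed liver, and the signals of DCAC liver 3 and of all 3 DCAA livers were under the floor of their array (48.7 to 67.3), where values have no order. The gene passed the filter through the controls and DCAC liver 2 alone. With the DCAA livers at their floors, Npas2 was at least 4.66-fold lower in DCAA than in control livers, and the measured means were 38.3 ± 15.3 in DCAA livers and 286 ± 10.8 in control livers. Control 2, apart from the comparison, read 268.6. The second Npas2 probe set was under the floor on all 8 arrays.

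Nfil3, the repressor at D-boxes, read 879.5, 1907.2 and 607.1 in DCAC livers, 815.9, 1727.2 and 1227.6 in DCAA livers and 1450.7 and 1546.9 in control livers. Its order over the mice was near that of Arntl, with DCAC liver 3 and DCAA liver 1 lowest and DCAC liver 2 highest. The groups overlapped, and groups accounted for 16.5% of the variance of log2 Nfil3.

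The period genes encode the repressors of the loop. Per1 read 35, 12.4 and 353.3 in DCAC livers, 397.7, 263 and 43.5 in DCAA livers and 40.6 and 194.3 in control livers. Signals under the floor and signals of 263 or more occurred in both dosed groups, and 4 of the 8 arrays, namely DCAC livers 1 and 2, DCAA liver 3 and control liver 1, were under the floor. The within-group standard deviation of log2 Per1 was 1.43, the 9th highest of 12293 genes, and groups accounted for 13.4% of its variance.

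Per2 read 320.7, 255.2 and 344.2 in DCAC livers, 405, 430.5 and 346.1 in DCAA livers and 200 and 133 in control livers. The 3 groups did not overlap on this probe set, with DCAA highest and control lowest, although DCAC liver 3 and DCAA liver 3 were nearly level. The means were 307 ± 46.1 in DCAC livers, 394 ± 43.3 in DCAA livers and 167 ± 47.4 in control livers, and groups accounted for 85.7% of the variance, the highest share among the 10 genes. The second kept Per2 probe set did not show this order: it read 355, 178.6 and 265.5 in DCAC livers, 346.9, 252.8 and 283.4 in DCAA livers and 269 and 218.6 in control livers, with all groups overlapping.

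Per3 read 395.3, 173.4 and 724.4 in DCAC livers, 698.2, 366 and 496.1 in DCAA livers and 388.7 and 259.7 in control livers. DCAC liver 3 and DCAA liver 1 were again the highest, DCAC liver 2 was the lowest, and the groups overlapped. Of the other 4 kept Per3 probe sets, 3 had an r with Dbp between 0.773 and 0.937 and 1 had 0.295, against 0.845 for the brightest.

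The nuclear receptors encoded by Nr1d1 and Nr1d2 (REV-ERB alpha and beta) repress transcription at ROR elements. Nr1d1 read 916.7, 454.3 and 1008.7 in DCAC livers, 1551.5, 1250 and 979.4 in DCAA livers and 632.3 and 329.6 in control livers. All DCAA livers lay above both controls, while DCAC liver 2 lay between the controls. Nr1d2 read 3027.8, 2075.1 and 3336.7 in DCAC livers, 3543.4, 2311.4 and 2233.5 in DCAA livers and 1843.9 and 1800.7 in control livers. Every dosed liver was above both controls for Nr1d2, and its highest array exceeded its lowest 1.97-fold.

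On control 2, whose markers were those of kidney rather than liver, Arntl read 722.3, Clock 393.8, Per2 198.7, Per3 284.9 and Nr1d1 571.6, while Nfil3 read 235.4, far below every one of the 8 liver arrays. With control 2 added to the controls, the log2 difference of Nfil3 became 0.32 for DCAC minus control and 0.57 for DCAA minus control, the opposite sign from that without it, and that of Dbp became 1.87 and 1.94.

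**Figure D2:**
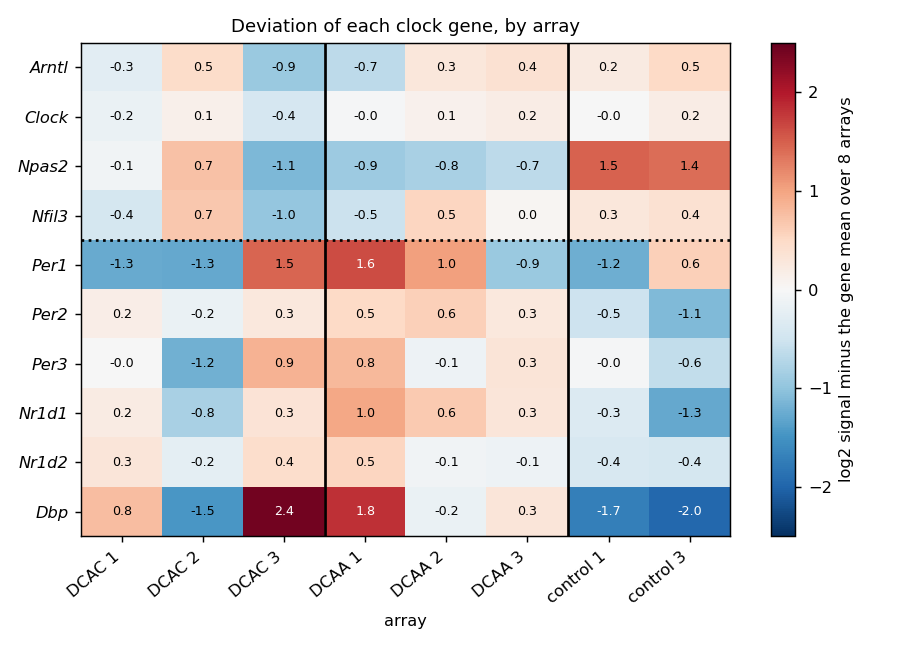
Log2 signal of each clock gene (rows) on each array (columns) minus the mean of that gene over the 8 arrays, with red above and blue below the mean; solid lines part the groups and the dotted line parts Arntl, Clock, Npas2 and Nfil3 from the other 6 genes. In DCAC liver 3 and DCAA liver 1 the 4 genes above the dotted line were at or below their means and the 6 below it were above theirs, and DCAC liver 2 shows the opposite pattern.

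On their brightest kept probe sets, the 10 genes fell into 2 sets that moved in opposite directions over the 8 arrays. Of the 24 pairs that join Arntl, Clock, Npas2 or Nfil3 with a period gene, Nr1d1, Nr1d2 or Dbp, 24 had a negative Pearson r of log2 signal (median -0.708, from -0.915 to -0.282). All 6 pairs within the first set were positive (median 0.731, from 0.421 to 0.940), as were all 15 pairs within the second (median 0.734, from 0.295 to 0.954). The points share 8 arrays from 3 groups, and signs that follow from 1 common pattern are not separate observations. With each gene's deviations from its group means in place of its levels, the same 24 pairs were negative (median -0.828) and the same 21 positive. On these probe sets the opposition was thus seen between mice of the same group. Npas2 and Per1 were each under the floor on 4 of the 8 arrays, so their pairs rest in part on array floors. For Npas2 this holds for every DCAA liver. A dimmer Clock probe set went against its set, with an r of -0.132 with Arntl over the 8 arrays.

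**Figure D3:**
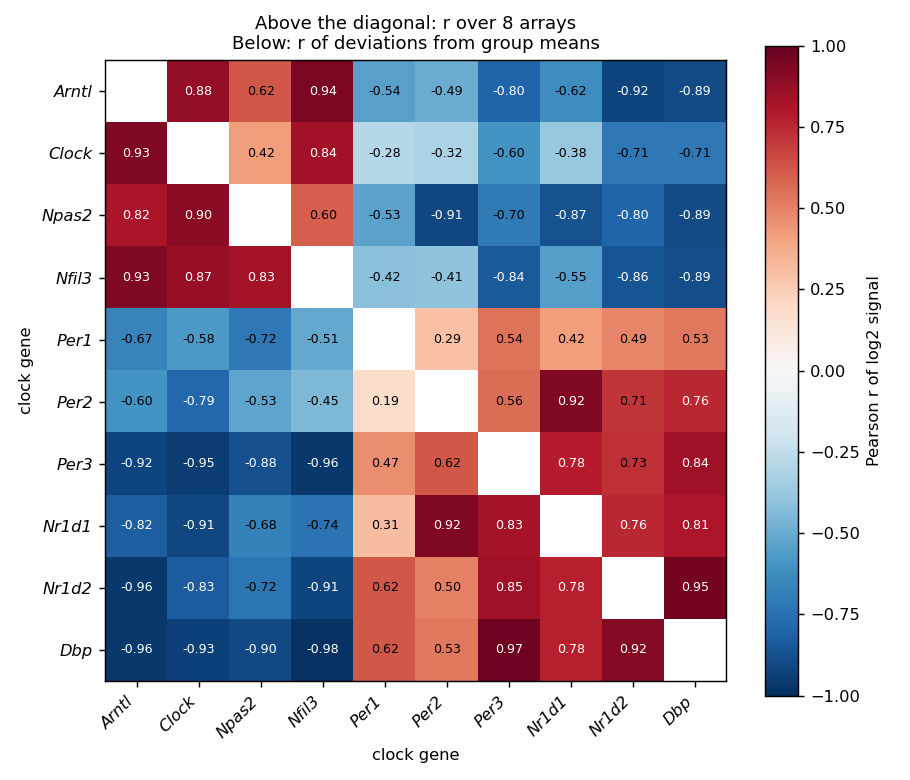
Pearson r of log2 signal between each pair of clock genes, over the 8 arrays above the diagonal and for deviations from the group means below it, with red positive and blue negative. The block that joins Arntl, Clock, Npas2 and Nfil3 with the other 6 genes is blue throughout, and the 2 blocks beside the diagonal are red.

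Set against Dbp, Nr1d2 had the closest course (r = 0.954, Spearman's rho 0.952, within groups 0.921). Next came Per3 (r = 0.845), Nr1d1 (0.805), Per2 (0.757) and Per1 (0.525), and on the negative side Arntl (-0.893), Npas2 (-0.892), Nfil3 (-0.889) and Clock (-0.712). Of these 9 genes 6 had an absolute r above 0.8, where 418 of 12292 genes (3.40%) did, and their median absolute r was 0.845, where that of all genes was 0.334. Since the genes were chosen for this relation, the contrast with all genes is a description only. The r values of Npas2 and Per1 rest in part on array floors.

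The 2 arrays farthest from the median of log2 Dbp were DCAC liver 3 and control liver 3. Without them the r with Dbp was -0.799 for Arntl, -0.335 for Clock, -0.834 for Npas2, -0.840 for Nfil3, 0.603 for Per1, 0.784 for Per2, 0.755 for Per3, 0.853 for Nr1d1 and 0.936 for Nr1d2. Leaving out DCAC liver 3 and DCAA liver 1, the 2 arrays with the highest Dbp, turned the sign for Per1 (r = -0.138) and lowered the median absolute r to 0.690. Without these 2 arrays the r of Per1 also turned positive with genes of the other set, among them Arntl (0.363) and Nfil3 (0.398). The place of Per1 in the Dbp set thus rested in part on these 2 arrays. These 2 arrays were the highest pair for 4 of the 6 genes of the Dbp set (Dbp, Nr1d2, Per1 and Per3) and the lowest pair for Arntl and Nfil3. For Npas2 they were under the floor, as were DCAA livers 2 and 3, so no lowest pair can be named.

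**Figure D4:**
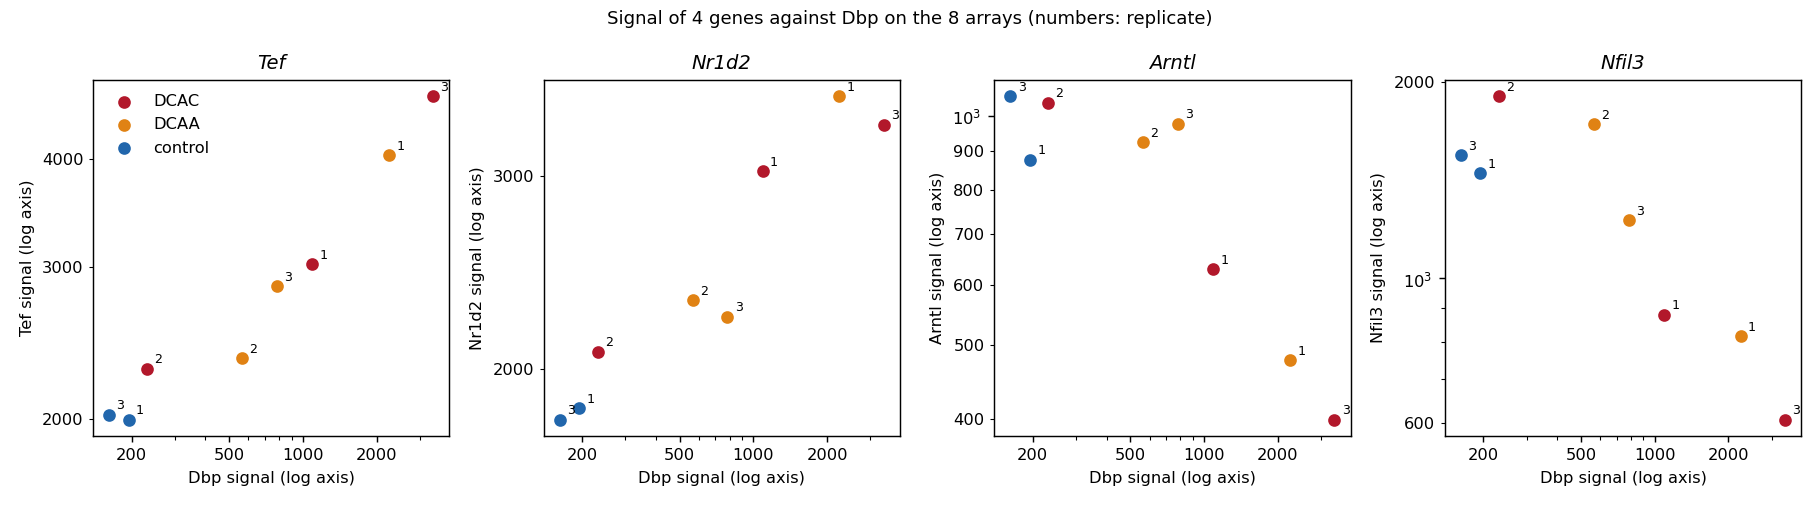
Signal of Tef, Nr1d2, Arntl and Nfil3 against that of Dbp (both axes log), with 1 point per array, coloured by group and numbered by replicate. Tef and Nr1d2 run upward with Dbp (r = 0.972 and 0.954) and Arntl and Nfil3 downward (r = -0.893 and -0.889), with mice of 1 group spread along each course.

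Printed next are the RefSeq promoter windows (GRCm38.p6, 250 bases before to 50 after a transcript start, on the strand of the gene) of the 3 clock genes in which a search of both strands found a clock motif, since these motifs are the known links between the 2 sets. The table held windows for 9 of the 10 genes, all but Per2, and 13 windows in all. Arntl and Per1 each had another window, without a match. Capitals mark the match: in Arntl a ROR element 27 to 36 bases after the start (chr7:113207261-113207560, plus strand), in Per1 an E-box at positions -166 to -161 from the start (chr11:69098699-69098998, plus strand), and in Per3 a pair of D-boxes, at positions -205 to -198 and -158 to -151 (chr4:151044616-151044915, minus strand).
Arntl: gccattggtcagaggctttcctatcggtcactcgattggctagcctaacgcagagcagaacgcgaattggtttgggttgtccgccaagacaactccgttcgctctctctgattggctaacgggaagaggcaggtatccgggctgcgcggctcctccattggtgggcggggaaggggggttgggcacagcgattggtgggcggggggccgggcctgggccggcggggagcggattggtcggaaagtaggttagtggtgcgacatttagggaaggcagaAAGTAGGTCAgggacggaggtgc
Per1: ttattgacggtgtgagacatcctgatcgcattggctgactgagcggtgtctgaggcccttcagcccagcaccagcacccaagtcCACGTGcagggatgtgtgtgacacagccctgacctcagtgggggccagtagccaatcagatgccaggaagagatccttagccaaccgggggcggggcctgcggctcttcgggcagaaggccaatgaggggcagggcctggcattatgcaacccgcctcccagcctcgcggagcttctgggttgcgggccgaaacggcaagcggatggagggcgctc
Per3: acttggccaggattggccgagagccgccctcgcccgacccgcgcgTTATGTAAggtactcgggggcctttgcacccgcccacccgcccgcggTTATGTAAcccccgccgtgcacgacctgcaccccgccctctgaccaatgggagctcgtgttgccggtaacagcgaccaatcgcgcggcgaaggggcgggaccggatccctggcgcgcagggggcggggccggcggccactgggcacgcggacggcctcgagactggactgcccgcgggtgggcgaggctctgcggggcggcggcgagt
The E-box was searched as CACGTG and occurred in 7.15% of the 32851 windows of this length. The D-box was searched as TTACGTAA or TTATGTAA and occurred in 1.06%. The ROR element, searched as the core of NR1D and ROR binding with its A and T rich flank, occurred in 0.371%. The E-box, the D-box and the ROR element were each found in 1 of the 13 clock gene windows, which for the E-box is near its share of all windows. A cyclic AMP response element, TGACGTCA, occurred in 1.79% of windows and in none of the clock genes' windows. None of the matches overlapped another. A match is a run of letters in a window, and the arrays hold no measure of binding there.

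In DCAC against control livers, 5 of the 10 clock genes had a positive and 5 a negative log2 difference. Limma, fitted over all 24531 probe sets with Benjamini-Hochberg adjustment, called 0 of the 20 clock gene probe sets, where it called 0.0326% of all probe sets (all of them higher), and 5 of the 20 had an unadjusted p under 0.05, as did 5.02% of all probe sets. Dbp differed by 2.42 on the log2 scale (95% interval 0.61 to 4.23), Per2 by 0.90 (0.24 to 1.56), Nr1d2 by 0.60 (0.09 to 1.11) and Npas2 by -1.59 (-3.17 to -0.01), and their adjusted p-values lay between 0.831 for Per2 and 0.967 for Npas2. The Npas2 value was computed with DCAC liver 3 raised to its floor. Without the floor, Npas2 differed by -2.21 (unadjusted p = 0.147 by limma). For Dbp, Per2, Nr1d2 and Npas2 the DCAC and control livers did not overlap on the brightest probe set. Of these 4 genes, 3 were higher and 1 lower in DCAC livers. By probe set, 4 of the 20 were higher and 2 lower without overlap. Of all probe sets 11.2% were higher and 12.5% lower without overlap, 23.7% in either direction. Nr1d1 differed by 0.71 (-0.06 to 1.49), Arntl by -0.59 (-1.42 to 0.23), Nfil3 by -0.57 (-1.45 to 0.30), Clock by -0.25 (-0.74 to 0.24), Per3 by 0.21 (-0.84 to 1.26) and Per1 by -0.05 (-2.19 to 2.08). The median absolute log2 difference of the 10 genes was 0.60, against 0.21 over all probe sets.

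In DCAA against control livers, set against the same 2 control arrays, 6 clock genes had a positive and 4 a negative difference, and limma again called 0 of the 20 probe sets, where 0.0815% of all were called (0.0693% higher and 0.0122% lower). An unadjusted p under 0.05 was found for 6 of the 20 and for 12.6% of all probe sets. Dbp differed by 2.49 (0.68 to 4.30), Nr1d1 by 1.44 (0.66 to 2.22), Per2 by 1.27 (0.61 to 1.93), Nr1d2 by 0.53 (0.02 to 1.04) and Npas2 by -2.22 (-3.80 to -0.64), the last computed with the DCAA livers at their floors. On their brightest probe sets, Dbp, Nr1d1, Per2, Nr1d2 and Npas2 did not overlap between the groups, 4 of them higher and 1 lower. By probe set, 7 of the 20 were higher and 2 lower without overlap. Of all probe sets 16.2% were higher and 15.6% lower without overlap, 31.8% in either direction. The adjusted p-values of these 5 genes ran from 0.163 for Per2 to 0.386 for Nr1d2. Per1 differed by 0.89 (-1.25 to 3.02), Per3 by 0.66 (-0.39 to 1.71), Arntl by -0.35 (-1.18 to 0.47) and Nfil3 by -0.32 (-1.19 to 0.55), and the interval for Clock was -0.49 to 0.49. The median absolute log2 difference was 0.77 for the clock genes and 0.28 over all probe sets.

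The 1 pair of compounds was compared at the same dose and time. For DCAC minus DCAA livers limma called 0 of the 20 clock gene probe sets, where 0.00408% of all were called, and 1 had an unadjusted p under 0.05, where 9.28% of all probe sets did. That was Nr1d1, with a difference of -0.73 (-1.42 to -0.03, adjusted p = 0.528 by limma over all probe sets). Per2 was the 1 clock gene whose DCAC and DCAA livers did not overlap, and it was lower in DCAC livers, by -0.37 (-0.96 to 0.22). By probe set, 0 of the 20 were higher and 1 lower without overlap. Of all probe sets 13.9% did not overlap (6.32% higher and 7.63% lower). The interval of the difference was -1.69 to 1.55 for Dbp, -2.85 to 0.97 for Per1, -0.79 to 2.04 for Npas2 and -0.39 to 0.52 for Nr1d2, which for Dbp is wide in both directions and for Per1 in the direction of lower DCAC signal.

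**Figure D5:**
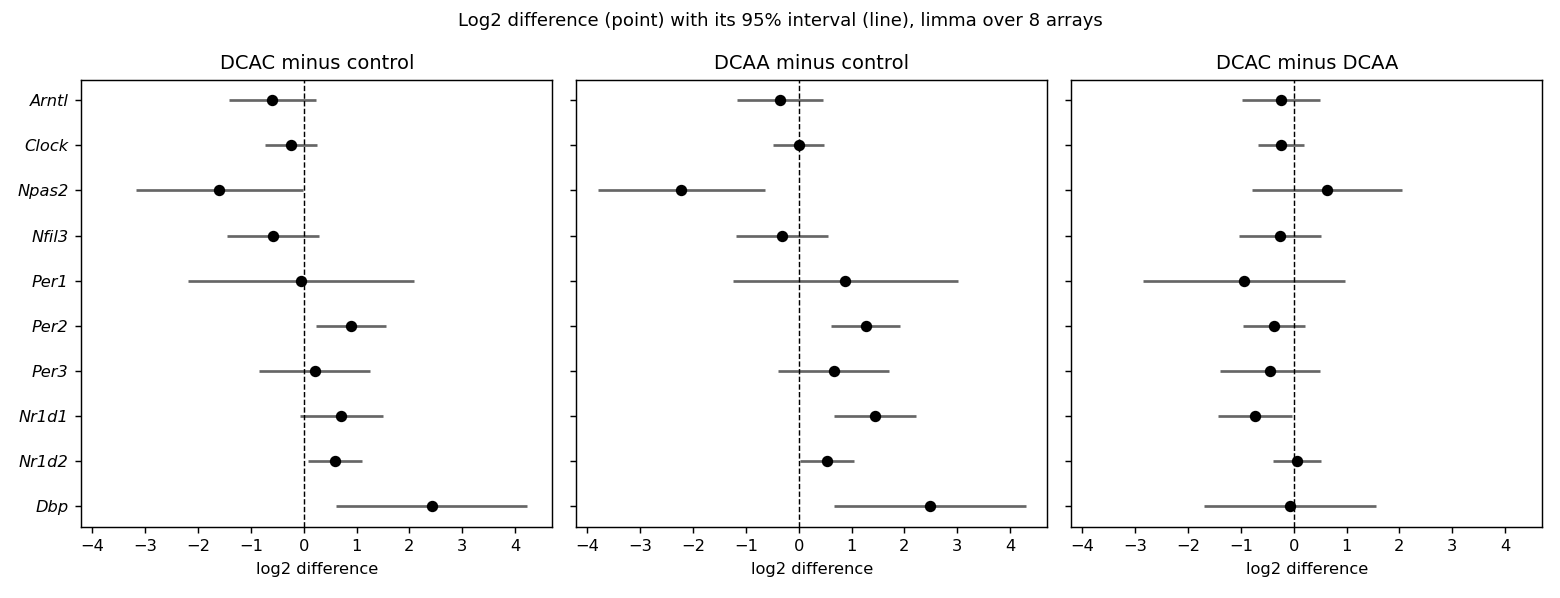
Log2 difference of each clock gene (point) with its 95% interval (line) from limma over 8 arrays, for DCAC minus control, DCAA minus control and DCAC minus DCAA. The intervals of Dbp, Per2, Nr1d2 and Npas2 lie off 0 in both comparisons with control and that of Nr1d1 in DCAA minus control and in DCAC minus DCAA, but none of these passed the adjustment over all probe sets.

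Values of other measures moved with some of these differences. DCAC liver 3 and the 3 DCAA livers, with pyruvate carboxylase 3'/5' ratios of 6.43 or more, had Npas2 signals of 13.5 to 50.8, against 99.3 to 293.2 on the other 4 arrays, Per2 signals of 344.2 to 430.5 against 133 to 320.7, and Nr1d1 signals of 979.4 to 1551.5 against 329.6 to 916.7. For Dbp the arrays of high ratio had 565.2 to 3403.8 and the others 162.2 to 1090.4, which overlap. The class of this ratio, divided at a gap chosen after the values were seen, was also entered as a block. The differences of DCAA from control livers were then -0.78 for Npas2, 0.999 for Per2, 0.80 for Nr1d1 and -0.27 for Dbp. Those of DCAC from control livers were -1.11, 0.81, 0.50 and 1.50 for the same genes in that order. All DCAA arrays were in the high class and both controls in the low class. The block was therefore set by DCAC liver 3 against DCAC livers 1 and 2 alone. Ratio class and compound cannot be told apart between DCAA and control livers. The summed signal of 7 T and NK cell markers was 1131 to 1167 in DCAC livers, 1026 to 1215 in DCAA livers and 1724 to 2738 in control livers. These markers were not alike: Ccl5, Gzma and Nkg7 read lower in every dosed liver than in both controls. Cd8a overlapped between dosed and control livers, as did Cd3e, Cd3g and Gzmb, which failed the filter. The summed signal of 9 hepatocyte markers was 306094 to 404848 in DCAC livers, 391274 to 426185 in DCAA livers and 311567 to 319310 in control livers. That of 8 neutrophil markers was 2651 to 2892 in DCAC livers, 1822 to 4283 in DCAA livers and 1294 to 1721 in control livers. This sum was higher in the dosed groups, but the markers were not alike. Prtn3 read 590.2 to 784.4 in dosed livers and 222.2 and 45 in control livers, while Mpo and Ngp overlapped. Of 7 markers above the filter, 6 had a positive difference and 1, Ngp, a negative one in each comparison with control. The summed signal of 7 Kupffer cell and macrophage markers was 4608 to 8078 in DCAC livers, 5680 to 6521 in DCAA livers and 4580 and 17112 in control livers 1 and 3. The part of cell makeup in the clock gene values was not tested.

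Other clock genes were taken from a list of 17, of which 15 were on the array and 9 were measured above the filter. Limma called 0 of the 9 in each of the 3 comparisons, and their median log2 difference was -0.14 for DCAC minus control, 0.15 for DCAA minus control and -0.28 for DCAC minus DCAA. Tef, a bZIP relative of Dbp, read 3018, 2285.6 and 4726.3 in DCAC livers, 4036.4, 2349.5 and 2847.1 in DCAA livers and 1996.8 and 2023.2 in control livers. Tef ordered the mice almost as Dbp did (r = 0.972), with DCAC liver 3 and DCAA liver 1 highest and the controls lowest, and its differences were 0.67 for DCAC minus control (adjusted p = 0.967 by limma) and 0.58 for DCAA minus control (adjusted p = 0.421).

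Hlf, the remaining member of that bZIP family, read 1539, 1108.7 and 3017.7 in DCAC livers, 2496.7, 1962.6 and 2474.5 in DCAA livers and 1116 and 1344.8 in control livers, with all DCAA livers above the controls (r with Dbp 0.877). Cry1, whose protein joins the period proteins in repression and whose transcript is known to peak later than theirs, read 134, 166.8 and 120.2 in DCAC livers, 102, 200.6 and 162.2 in DCAA livers and 274.2 and 287.3 in control livers. Both controls exceeded every dosed liver for Cry1, and its r with Dbp was -0.893. The log2 difference of Cry1 was -1.01 for DCAC minus control and -0.91 for DCAA minus control, with adjusted p-values of 0.967 and 0.429 by limma. For Csnk1e, a kinase that phosphorylates period proteins, the differences were -0.79 for DCAC minus control and -0.58 for DCAA minus control, and for Rora, an activator at ROR elements, the difference of DCAC minus DCAA was -0.61. Cry2 had an r with Dbp of -0.026 and Bhlhe40 of 0.275.

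From a list of 18 liver genes known to follow the clock, 15 were measured. Limma called Cyp7a1, which makes the first and limiting step of bile acid production, as higher in DCAC than in control livers (log2 difference 2.03, adjusted p = 0.0312), and called 0 of the 15 for DCAA minus control and for DCAC minus DCAA. Cyp7a1 read 7461, 8506.9 and 12224.7 in DCAC livers, 3674.1, 2821 and 3657.4 in DCAA livers and 1559.8 and 3224.7 in control livers, an order unlike that of Dbp (r = 0.516). The Cyp7a1 call was lost in 11 of 22 alternatives, among them without DCAC liver 2 or 3, DCAA liver 2 or 3, or control liver 1 (adjusted p = 0.0577 to 0.145 by limma), and over the 22 the adjusted p ran from 0.0034 to 0.765. The median difference of the list was 0.09 for DCAC minus control, -0.29 for DCAA minus control and 0.15 for DCAC minus DCAA. Rgs16, a regulator of G protein signalling with a daily rhythm in mouse liver, read 228, 300.7 and 629.4 in DCAC livers, 2747.5, 954.7 and 1685.2 in DCAA livers and 287.1 and 25.5 in control livers, the last under the floor. All DCAA livers exceeded the other arrays for Rgs16, with a log2 difference of 3.72 for DCAA minus control (adjusted p = 0.0616 by limma), computed with control liver 3 raised to its floor, so that the difference is a lower bound. Of the 15 genes 2 had an absolute r with Dbp above 0.8, the glycogen synthase gene Gys2 (0.834) and Lonrf3 (-0.834).

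By the same measure over 8 arrays, the genes outside the clock list with the highest r to Dbp among 12283 were Sdhaf4 (0.979), Cntrl (0.977), Tef (0.972), Cryz (0.967) and Psmb6 (0.961). Those with the lowest were Rasl11b (-0.970), Arf3 (-0.965), Zfand5 (-0.964), Arl1 (-0.964) and Efl1 (-0.953). For Arntl the highest were Rnf125 (0.972), Trav9d-3 (0.971), Fcho2 (0.959), Twf2 (0.950) and Crem (0.935), and the lowest were Pemt (-0.965), Cntrl (-0.954), Szrd1 (-0.951), Gstt2 (-0.949) and Supt16 (-0.938). Cntrl, which was near the top for Dbp and near the bottom for Arntl, read 254.8, 94.8 and 445.3 in DCAC livers, 434.7, 148.9 and 161.6 in DCAA livers and 106.4 and 92.5 in control livers. These 20 places were the extremes of 12283 correlations over 8 arrays, and such extremes include chance likeness.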

How the data were processed

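Total RNA of each liver was hybridised to 1 Affymetrix array. The authors deposited 1 linear signal intensity for every probe set and array, from the GCOS software, per the submitters' processing notes, which give no version. Genome build and annotation are not given in the sources used here, and symbols come from the platform annotation, in which 34945 probe sets carry 1 symbol. The 64 manufacturer control probe sets were left out.

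Signals under the 25th percentile of an array were raised to it, log2 was taken, and a probe set was kept where 3 or more of the 8 arrays exceeded their own median. Limma 3.58.1 in R 4.3.3 (lmFit, eBayes with trend) fitted all 3 groups in 1 model, with Benjamini-Hochberg adjustment over 24531 probe sets and a threshold of 0.05. The deposited arrays hold no read depth. The p-values measure the spread between mice. The script was tested on simulated data.

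The 10 genes and all gene lists were chosen with earlier results of these data known. All 10 are named; of each list, genes past the threshold and up to 4 with the largest difference in a comparison, plus those with an absolute r to Dbp above 0.8, chosen after their values were seen. Correlations carry no p because the relation chose the genes. Replicate numbers in the labels say nothing of shared litters or days, and they were treated as not pairing mice. Deviations from group means correlated at -0.041 to 0.027 over 7 same-numbered pairs of arrays and at -0.066 to 0.074 over 14 other pairs. With so few arrays a group, the deviations within a group are tied to one another, so these values could hardly show a pairing. Alternatives covered arrays, scaling, floor, filter, eBayes settings, weights and blocks.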

Additional observations from a re-analysis of the deposited data

Results flagged for a closer look

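Control 2 entered no comparison, and on it 3 clock genes read above both control livers. Dbp read 558.3 on control 2 and 194.6 and 162.2 in control livers 1 and 3. Per1 read 234.5 on control 2, against 40.6 and 194.3. Nr1d2 read 1961 on control 2, against 1843.9 and 1800.7. The same array held a summed kidney marker signal of 119488 and a hepatocyte marker signal of 24864, and whether its clock gene values belong to another tissue was not tested.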

How the results depend on the processing

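Clock gene probe sets called remained 0 in the 3 comparisons under each alternative run. Limma's calls over all probe sets were few and moved: for DCAC minus control 8, DCAA minus control 20 and DCAC minus DCAA 1, against 0, 0 and 0 with all 9 arrays (unadjusted p under 0.05: 1336, 3025 and 1446), 0, 0 and 0 with eBayes without trend (1131, 2713 and 2181), 1, 4 and 0 without the filter, and 2, 0 and 3 when the class of the 3'/5' ratio entered as a block. Scaling to a common median gave 9 for DCAA minus control and 0 for DCAC minus DCAA, and moved the median of all probe sets in these comparisons by -0.12 and 0.19. Robust eBayes gave 1 for DCAC minus control, array weights gave 30 and 141 against control, and fitting only the 2 groups gave 2 for DCAC minus DCAA. Leaving out 1 array gave 2 (without DCAC 3) to 14 (without DCAA 1), 3 (without DCAA 3) to 87 (without DCAA 1) and 0 to 2. The replicate block, with numbers not taken to pair mice, gave 7, 17 and 1.

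Median absolute r with Dbp was 0.845, then 0.793 with 9 arrays, 0.799 without DCAC 3 and control 3, and 0.690 without DCAC 3 and DCAA 1, where Per1 turned to -0.138; leaving out 1 array gave 0.803 to 0.875, and 0.357 to 0.716 for Per1. Of the clock gene differences recomputed, 599 kept their direction and side of the threshold and 40 reversed; the cause was not tested. For DCAC minus control, Per1 became 0.0059 (quantile), 0.016 (common median), 0.061 (replicate block), 0.40, 0.41 and 0.85 (without DCAC 1, DCAC 2 and control 3, in a leave-one-out range from -0.97); Per3 -0.19 (weights), -0.28 (ratio class, and without DCAC 3, in a range up to 0.75) and -0.081 (without control 3); Nfil3 0.32 (9 arrays). For DCAA minus control, Clock became 0.17 (9 arrays), 0.018 (quantile), 0.39 (ratio class), 0.053 (without DCAA 1) and 0.095 (without control 3, in a range from -0.10); Nfil3 0.57 (9 arrays) and 0.77 (ratio class); and with the ratio class Arntl 0.67, Per1 -1.85, Per3 -0.81 and Dbp -0.27, a correction that rests on DCAC 3 against DCAC 1 and 2. Per1 was -0.020 without control 1, in a range up to 1.79. For DCAC minus DCAA, Nr1d2 became -0.0075 (quantile), -0.035 (weights), -0.0019, -0.072, -0.029 and -0.054 (without DCAC 1, DCAC 3, DCAA 2 and DCAA 3, in a range up to 0.28); Dbp 0.12 (common median), 1.77 (ratio class), 0.95 (without DCAC 2, in a range from -0.99) and 0.52 (without DCAA 1); Per3 0.53 (ratio class) and 0.091 (without DCAC 2, in a range from -0.94); Npas2 -0.33 and Per1 0.88 (ratio class); Arntl 0.099 and Nfil3 0.11 (without DCAC 3, in ranges from -0.59 and -0.72), and Nfil3 0.0076 (without DCAA 2). With 2 or 3 mice a group, the 95% intervals of Dbp and Per1 span several-fold differences, and signals under the floor bound Npas2 and Per1.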

Other observations

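Of 8 genes known to respond to glucocorticoids, which can also reset the clock in liver, limma called 0 in either dosed group against control, and Dusp1, a phosphatase of MAP kinases, as lower in DCAC than in DCAA livers (log2 difference -1.53, adjusted p = 0.0269). The Dusp1 call was lost in 10 of 22 alternatives, among them without any 1 of the DCAC livers or without DCAA liver 1 or 2 (adjusted p = 0.0573 to 0.358 by limma), and over the 22 the adjusted p ran from 0.0057 to 0.851. Zbtb16 read 1597.7, 1450.7 and 4851.7 in DCAC livers, 5634.9, 2123.6 and 3572.3 in DCAA livers and 1284.3 and 1331.2 in control livers, with every dosed liver above both controls. Cdkn1a, an inhibitor of the cell cycle, read 213.8, 300.3 and 106.3 in DCAC livers, 509.7, 335.7 and 233.3 in DCAA livers and 602.3 and 890.2 in control livers. Sgk1, a kinase, read 683.3, 482.5 and 367 in DCAC livers, 537.5, 561.3 and 442.8 in DCAA livers and 825.3 and 2960.5 in control livers. For both Cdkn1a and Sgk1 every dosed liver lay below both controls, the opposite of Zbtb16. The log2 differences of Cdkn1a were -1.95 for DCAC minus control and -1.10 for DCAA minus control, and those of Sgk1 were -1.66 and -1.61 in the same order. Over the 8 arrays the r with Dbp was 0.874 for Zbtb16, 0.743 for Tsc22d3, 0.00060 for Dusp1, -0.634 for Sgk1 and -0.682 for Cdkn1a. For the rest of the list it was 0.382 for Pck1, 0.347 for Tat and -0.080 for Fkbp5.

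Usp2, a deubiquitinase gene with a daily rhythm in mouse liver, read 573.5, 424.9 and 608.6 in DCAC livers, 715.3, 61.6 and 86.1 in DCAA livers and 351.2 and 68 in control livers. Low and high values occurred side by side in the DCAA livers and in the controls. Alas1, the first enzyme of heme synthesis, read 3822.3, 8661.7 and 19625.9 in DCAC livers, 6974.7, 2219.1 and 1680.6 in DCAA livers and 4249.6 and 3797.6 in control livers, with groups overlapping. Tfrc, the transferrin receptor gene, read 1361.3, 904.6 and 1008.5 in DCAC livers, 866, 1113.5 and 940.4 in DCAA livers and 3233.1 and 1551.4 in control livers, with every dosed liver below both controls and no call by limma.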
